A study of Mus musculus with 4 samples.

Results

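The 8 genes described here encode the core machinery that makes microRNAs and loads them into the silencing complex: Drosha, Dgcr8, Xpo5, Dicer1, Tarbp2, Ago1, Ago2 and Ago3. They were taken by symbol from the 31053 genes counted in single invariant natural killer T (iNKT) cells of the mouse thymus, and each symbol matched 1 gene. They were grouped around Drosha because its transcript was much lower in mice lacking Hivep3, so the genotype difference of Drosha itself is given as values without a test, and tests were run on the other 7 genes. iNKT cells are T cells with a nearly invariant receptor that recognises lipids presented by CD1d. The control mice were untreated wild-type C57BL/6 animals and the knockout mice were untreated Hivep3-/- animals backcrossed to C57BL/6, all aged 8 to 9 weeks. Each genotype had 2 mice, and each mouse gave 1 library of thymic cells that bound the PBS57-CD1d tetramer, sorted as a mix of CD44low and CD44high cells in equal parts and sequenced from the 5′ end of the transcripts.

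A microRNA is first transcribed as part of a long primary transcript that folds into a hairpin. In the nucleus the Microprocessor, made of the ribonuclease Drosha and its RNA-binding partner Dgcr8, cuts the hairpin out, and Exportin-5 (Xpo5) carries it to the cytoplasm. There the ribonuclease Dicer1, with its partner Tarbp2, trims the hairpin to a short duplex, and 1 strand is loaded into an Argonaute protein (Ago1, Ago2, Ago3), which guides the silencing complex to matching messenger RNAs. T cell development depends on this pathway, and iNKT cells are among the lineages known to be affected when it is disrupted.

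Among the 8 microRNA host transcripts that were part of the counted gene set, Mir142hg and Mir17hg had a mean of at least 1 CPM (UMIs per 1000000 UMIs of a library) over the libraries, and the microRNAs they carry are shown because they are the products this machinery would make from transcripts seen in these cells. The annotated Mir142 hairpin, which includes a few bases outside its mature arms, lies on the plus strand at chr11:87756864-87756927 (RefSeq sequence, GRCm38.p6), inside the lincRNA gene Mir142hg. It is written here with its mature arms in capitals.
Mir142 hairpin: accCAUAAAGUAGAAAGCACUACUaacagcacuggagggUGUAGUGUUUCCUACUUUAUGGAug
In the mature microRNAs the capitals mark the seed, bases 2 to 8, which pairs with the target. The Mir142hg transcript carries 2 mature microRNAs with different seeds.
mmu-miR-142a-5p: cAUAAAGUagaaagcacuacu
mmu-miR-142a-3p: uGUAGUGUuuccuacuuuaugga
Mir17hg, a lincRNA gene at chr14:115042879-115046727 on the plus strand, carries 6 hairpins with 11 annotated mature microRNAs. Those below share a seed in pairs, AAAGUGC in miR-17-5p and miR-20a-5p and GUGCAAA in miR-19a-3p and miR-19b-3p, while miR-18a-5p and miR-92a-3p have seeds of their own in this set.
mmu-miR-17-5p: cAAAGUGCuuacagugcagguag
mmu-miR-20a-5p: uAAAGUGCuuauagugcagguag
mmu-miR-19a-3p: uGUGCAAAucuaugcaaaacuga
mmu-miR-19b-3p: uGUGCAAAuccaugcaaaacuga
mmu-miR-18a-5p: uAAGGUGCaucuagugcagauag
mmu-miR-92a-3p: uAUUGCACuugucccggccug

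The 4 libraries held between 31381738 and 48291764 unique molecular identifiers (UMIs, each counting 1 captured transcript), and 19647 of 22279 barcodes were kept by filters on depth and mitochondrial content. Cells were grouped by clustering, without using any of the 8 genes, and clusters were named from markers: stage 0-like cells (Itm2a, Cd24a, Egr2), the earliest stage after selection, cycling-like cells (Mki67, Ccnb2, Mcm3), and cells like the effector subsets iNKT2 (Il17rb, Icos, Il4), iNKT17 (Il23r, Ccr6, Serpinb1a) and iNKT1 (Klrb1c, Gzmb, Ccl5). Clusters with 4177 cells (21.3% of those kept) could not be named from the markers, and 1 cluster of 21 cells was B cell-like. Of the marker lists of other cell types, 3 had a higher summed level in both knockout libraries. These were gamma delta T cells (5 of 5 genes detected), with 264 and 376 CPM in C57BL/6 and 561 and 498 CPM in Hivep3-/-, double positive thymocytes (9 of 9), with 51 and 42.9 against 61.6 and 65.2 CPM, and myeloid cells (8 of 8), with 130 and 133 against 150 and 166 CPM. No cluster was named for any of these 3 cell types, so the sums do not show whether such cells were present. The part of these transcripts in the results below was not tested. The B cell list overlapped between genotypes (130 and 140 against 162 and 128 CPM), and the erythroid list was near 0, with Hba-a2 at 0. Xist, which coats the silenced X in female cells, was counted 14609 times for C57BL/6 replicate 1 and at most 25 times for each of the other libraries. Y-linked genes had 0 UMIs in that library and 4120, 3568 and 4879 in the others. By these counts it came from a female and the others from males, whereas the study describes its sequenced C57BL/6 mice as female. Sex was not adjusted for, and values without C57BL/6 replicate 1 are given for some results only. Between 26 and 58 barcodes were shared by each pair of libraries. Hivep3 itself gave 1735 and 929 UMIs in wild-type mice and 3464 and 2122 in knockout mice; a count from the 5′ end does not show which exons remain, so it does not check the genotype labels.

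Drosha, on chromosome 15 (chr15:12824815-12935291, plus strand, mm10), was low in both knockout mice. Over all cells it had 9343 and 4570 UMIs in C57BL/6 replicates 1 and 2 against 803 and 861 in Hivep3-/- replicates 1 and 2. Scaled to library size by the TMM method, this was 214 and 186 CPM in C57BL/6 and 22.3 and 27.3 CPM in Hivep3-/-, so the groups were far apart. The means were 200 ± 19.7 and 24.8 ± 3.51 CPM (SD, n = 2 each), which is 8.06-fold lower in the knockout, and the fitted log2 difference (Hivep3-/- minus C57BL/6) was -3.01 (SE 0.166). A sum over cells cannot tell fewer cells with the transcript from less of it per cell, and over all cells it also depends on how many cells of each class a library held.

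The wild-type level of Drosha depended strongly on the class of cell. It is given here as CPM of the class with no further scaling, since TMM factors were fitted within each class. Cycling-like cells had 313 and 315 CPM in C57BL/6 replicates 1 and 2, iNKT2-like cells 241 and 228 CPM, and stage 0-like cells 95.4 and 102 CPM. In iNKT1-like cells it was 70.5 and 71.8 CPM, and in iNKT17-like cells 32.7 and 14.8 CPM. No neighbours in this order overlapped between the 2 C57BL/6 libraries, although the iNKT17-like values rest on 43 and 16 UMIs. In the knockout the order was different at the top: iNKT2-like cells had 63.5 and 70.3 CPM, cycling-like cells 47.1 and 43.8 CPM and stage 0-like cells 33.4 and 33.1 CPM. At the bottom, iNKT17-like cells had 15.6 and 9.75 CPM and iNKT1-like cells 11.5 and 7.57 CPM, and these overlapped. The order of levels is a description, and no test was made between classes.

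**Figure D1:**
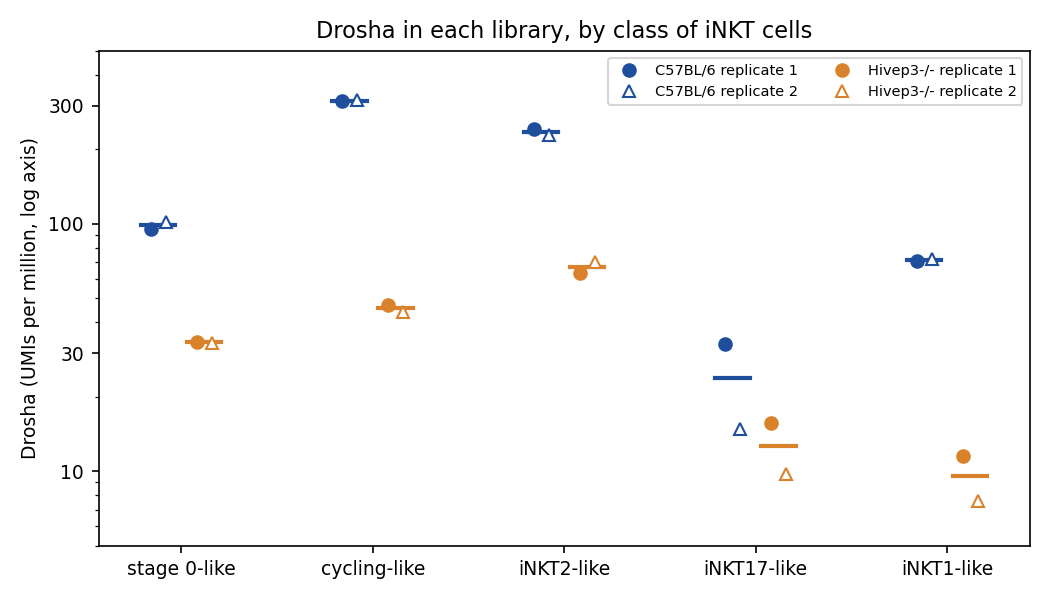
Drosha in CPM, UMIs per 1000000 of the class (log axis), in each of the 4 libraries, for 5 classes of thymic iNKT cells; blue marks C57BL/6, orange Hivep3-/-, symbols the replicates and bars the mean of 2 libraries. The knockout libraries lie below the wild-type libraries except in iNKT17-like cells, where 15.6 CPM in Hivep3-/- replicate 1 is above 14.8 CPM in C57BL/6 replicate 2.

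The size of the fall differed between classes. It was similar in size in iNKT1-like cells, from 73.1 ± 0.774 to 9.2 ± 2.07 TMM-scaled CPM (7.86-fold, log2 difference -2.97, SE 0.188), and in cycling-like cells, from 333 ± 4 to 43 ± 1.03 CPM (7.74-fold, -2.95, SE 0.135), and smaller in the other classes. The clusters of the iNKT1-like class had different shares of it in the 2 genotypes: the cluster led by Fgl2 held 1636 of 2470 and 1001 of 1686 of its cells in C57BL/6 but 984 of 2428 and 772 of 1930 in Hivep3-/-, and the cluster led by Ccl5, where Drosha is low in the wild type, held 441 and 259 against 744 and 702. In the cluster led by Fgl2 alone the log2 difference was -3.20. The cycling-like clusters also had different shares. The cluster led by Ccnb2, high in Drosha, held 348 of 1168 and 118 of 399 cells in C57BL/6 but 35 of 208 and 70 of 350 in Hivep3-/-. The cluster led by Mki67, lower in Drosha, held 19 and 15 against 36 and 20. Without TMM scaling, single cycling-like clusters fell between 5.89-fold and 7.24-fold. How far these shares moved the class values was not tested. In iNKT2-like cells Drosha went from 242 ± 7.96 to 65.2 ± 7.68 CPM (3.72-fold, -1.89, SE 0.139). In stage 0-like cells it went from 104 ± 6.7 to 32 ± 1.17 CPM (3.22-fold, -1.69, SE 0.193), on 142 and 74 UMIs in C57BL/6 and 80 and 81 in Hivep3-/-. All these values have n = 2 libraries a genotype, and in each of these classes both knockout libraries were below both wild-type libraries.

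iNKT17-like cells stood apart from this. Their Drosha counts were 43 and 16 UMIs in C57BL/6 and 17 and 11 in Hivep3-/-, or 33.5 and 15.5 against 15 and 9.95 TMM-scaled CPM. The log2 difference was -0.99 (SE 0.433), and without C57BL/6 replicate 1 it was -0.31, so 1 library decided its size. The knockout libraries were below the wild-type libraries only on the TMM scale, by a small margin, and overlapped without it.

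In a fit of both classes together that kept each library as a block, the log2 difference in stage 0-like cells was 1.29 closer to 0 than that in iNKT1-like cells (SE 0.211, 95% interval 0.86 to 1.72), and the difference in iNKT2-like cells 1.03 closer (SE 0.157, 95% interval 0.70 to 1.36). These intervals describe the gene for which the group was chosen and are not a test. The stage 0-like value moved to 0.79 when clusters were cut more finely (Louvain resolution 1.2) and to 1.63 when cut more coarsely (0.4). It was 1.05 without Hivep3-/- replicate 2 and 1.59 without Hivep3-/- replicate 1. At resolution 0.4 the iNKT1-like class was larger, with 3590 and 2498 cells in C57BL/6 and 3186 and 2399 in Hivep3-/-. At 0.8 it held 2470 and 1686 against 2428 and 1930 cells. The iNKT2-like value was 0.72 without Hivep3-/- replicate 2 and 1.43 without Hivep3-/- replicate 1.

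Within the classes, clusters with at least 50 cells in every library could be compared 1 by 1. Drosha was lower in both knockout libraries in 8 of these 9 clusters, the iNKT17-like cluster being the exception, and since this is the contrast that chose the gene the count is no support for it. Levels in these 9 clusters ran from 14.8 to 301 CPM in single C57BL/6 libraries and from 5.89 to 70.3 CPM in single Hivep3-/- libraries, without TMM scaling. The iNKT1-like clusters were not alike in the wild type. The cluster led by Fgl2, Rgs1 and Klrb1c had 83.3 and 81 CPM in C57BL/6 and 12.7 and 5.89 CPM in Hivep3-/-, and the cluster led by Gzmb and Klra5 had 60.8 and 75 against 11.3 and 7.56 CPM. In the cluster led by Ccl5 and Gzma, genes of late iNKT1 cells, C57BL/6 had only 34.7 and 29.4 CPM, and Hivep3-/- 10 and 9.32 CPM, a 3.31-fold difference where the other iNKT1-like clusters had 8.86-fold and 7.19-fold. The knockout levels of the 3 clusters overlapped, while the wild-type levels did not, apart from the upper 2 lying close together.

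The unnamed clusters held the steepest falls among these. The cluster led by Klra3, Dusp1 and Cxcr3 had 120 and 191 CPM in C57BL/6 and 12.4 and 12.2 CPM in Hivep3-/-, 12.6-fold lower. The cluster led by the interferon response genes Ifit3, Ifit3b and Ifit1 had 87.1 and 153 CPM in C57BL/6 and 8.56 and 11.6 CPM in Hivep3-/-, 11.9-fold lower. Among cycling-like cells, those led by the mitotic genes Ccnb2, Cenpa and Cdc20 had 389 and 370 CPM in C57BL/6, the highest wild-type levels of the clusters plotted, and 60 and 55.8 CPM in Hivep3-/-, where the smaller library had 35 cells. Those led by the replication genes Ung, Hells and Cdc6 had 301 and 290 CPM against 54.6 and 45.8 CPM.

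**Figure D2:**
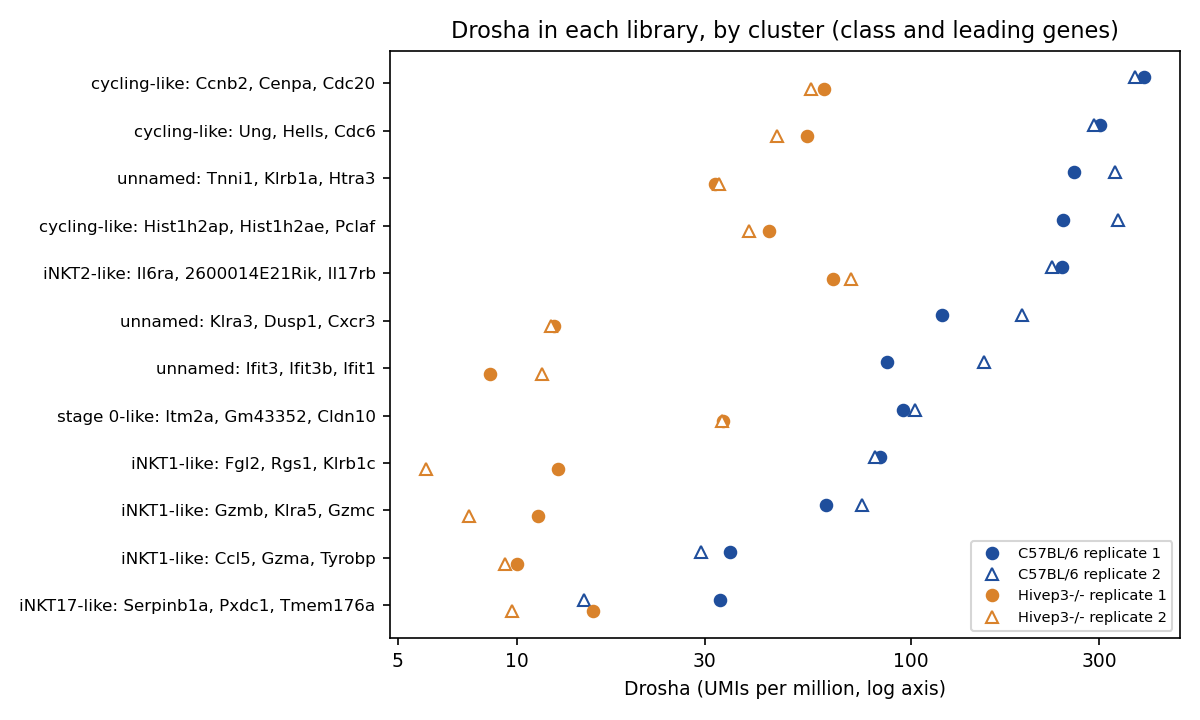
Drosha in CPM (log axis) in each library, for the 12 clusters with at least 35 cells in every library, named by class and leading genes and sorted by the wild-type mean. Wild-type levels run from 389 and 370 CPM in a cycling-like cluster to 14.8 and 32.7 CPM in the iNKT17-like cluster, where the genotypes overlap.

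No fall of the size that Drosha had over all cells was measured in its partners. In each of the 5 classes and over all cells, 0 of the other 7 genes passed the test (edgeR's quasi-likelihood test on sums per library, Benjamini-Hochberg adjustment over all genes, adjusted p under 0.05), and 0 of 7 did at an unadjusted p under 0.05 or with DESeq2. All 7 genes passed the filter on low counts everywhere. Of all genes tested, 0.765% passed over all cells. By class the share was 4.24% for cycling-like cells, 0.635% for iNKT1-like, 0.527% for iNKT2-like, 0.33% for stage 0-like and 0.0656% for iNKT17-like cells. With 7 genes, a count of 0 is therefore what the background alone would leave in most classes. The intervals of the 7 genes say more than their counts. Over all cells the 95% intervals of the 7 log2 differences lay between -0.67 and 0.83, beside -3.41 to -2.61 for Drosha. The interval of Drosha describes the gene for which the group was chosen and is not a test. The intervals of the 7 genes were widest in iNKT17-like cells, -2.05 to 1.12, where each library held few cells. In that class Ago1 had a log2 difference of -0.72 (95% interval -2.05 to 0.61) and Drosha -0.99 (-1.95 to -0.04). The values there do not set Drosha apart from Ago1.

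**Figure D3:**
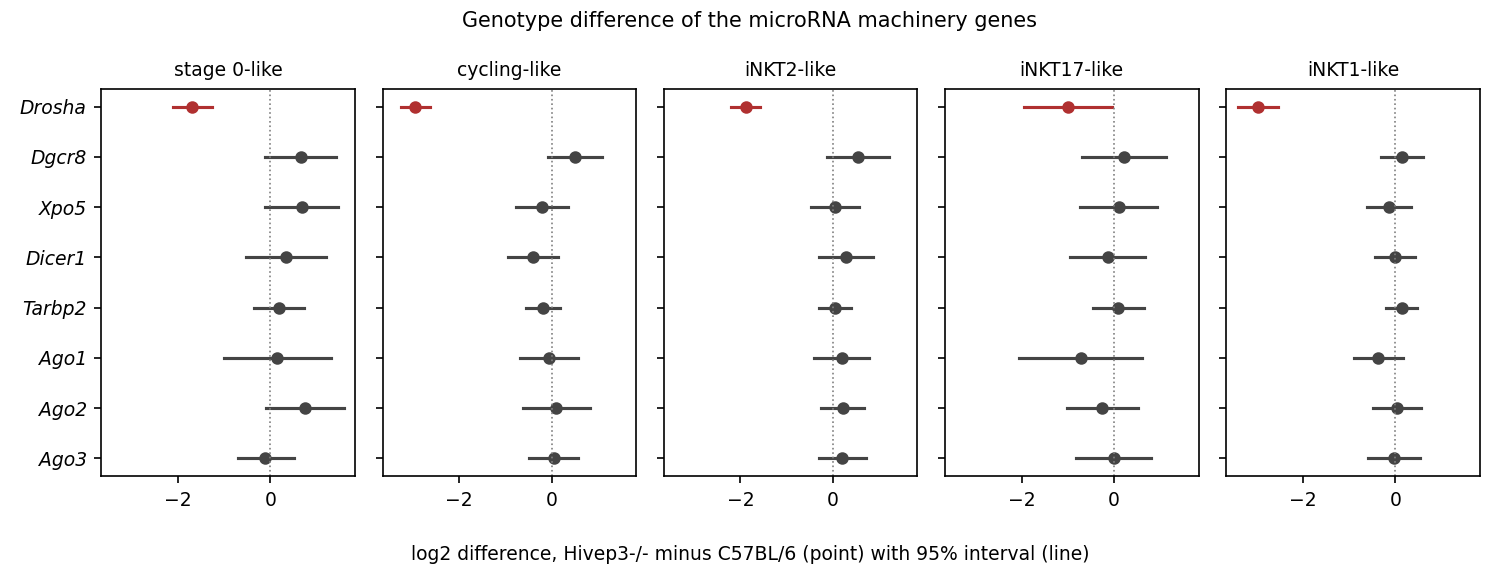
Log2 difference between genotypes (Hivep3-/- minus C57BL/6, points) with its 95% interval (lines) for the 8 genes in 5 classes. Drosha (red) lies between -2.97 and -0.99 in the 5 classes, and the interval of every other gene (grey) includes 0.

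Dgcr8, which binds the hairpin and holds Drosha in the Microprocessor (chr16:18253948-18289246, minus strand), had a positive log2 difference in every class, turning to -0.09 in iNKT17-like cells without Hivep3-/- replicate 2. Leaving out 1 library each, it ran from 0.48 to 0.99 in stage 0-like cells, the highest without C57BL/6 replicate 1. It ran from 0.20 to 0.77 in cycling-like cells and from 0.26 to 0.76 in iNKT2-like cells, lowest without Hivep3-/- replicate 1 and highest without Hivep3-/- replicate 2 in both. In stage 0-like cells it had 21 and 7 UMIs in C57BL/6 and 57 and 46 in Hivep3-/-, or 14.6 and 10.3 against 22.2 and 18.7 TMM-scaled CPM. Both knockout libraries were higher, and the log2 difference of 0.65 (SE 0.349, 95% interval -0.12 to 1.42) had an adjusted p of 0.696 by edgeR. In cycling-like cells its levels were 14.9 and 13 CPM in C57BL/6 and 24.3 and 16.2 CPM in Hivep3-/- (0.50, SE 0.253, adjusted p 0.342 by edgeR). In iNKT2-like cells they were 6.66 and 6.71 CPM against 11.5 and 7.97 CPM (0.54, SE 0.29, adjusted p 0.569 by edgeR). In each of these 3 classes the knockout libraries were above the wild-type libraries, with the higher value in Hivep3-/- replicate 1. How many of all genes lay without overlap was not counted. The classes come from the same mice and are not separate evidence, and Dgcr8 did not pass the test in any of them. In iNKT1-like cells the difference was 0.15 (SE 0.194) and the genotypes overlapped. Dgcr8 overlaps Trmt2a on the other strand and AC084822.2 on its own, and how reads in these overlaps were counted was not examined.

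Xpo5, the export receptor (chr17:46202782-46243598, plus strand), was at 10.5 and 11.7 CPM in wild-type stage 0-like cells and at 17.6 and 17.4 CPM in those of the knockout, without overlap, on 15 and 8 UMIs in the wild type. The log2 difference was 0.68 (SE 0.357), and the adjusted p was 0.687 by edgeR. With clusters cut more finely (resolution 1.2) it was 0.13. In the other classes the Xpo5 levels of the genotypes overlapped, with differences between -0.22 and 0.10. Over all cells it had 12.1 and 13.5 CPM in C57BL/6 and 12.6 and 11.8 CPM in Hivep3-/-, a difference of -0.06 (95% interval -0.49 to 0.36).

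Dicer1, the cytoplasmic ribonuclease (chr12:104687742-104751952, minus strand), was lower in both knockout libraries among cycling-like cells, with 12.8 and 14.6 CPM in C57BL/6 and 9.88 and 10.5 CPM in Hivep3-/-. The log2 difference of -0.41 (SE 0.235) did not pass the test (adjusted p 0.408 by edgeR). In iNKT2-like cells the direction was the opposite, 8.2 and 9.3 against 9.36 and 11.6 CPM (0.28, SE 0.257, adjusted p 0.768 by edgeR), and in iNKT1-like cells the difference was 0.00 (SE 0.186). No change of Dicer1 in a steady direction was therefore seen across classes. Tarbp2, its double-stranded RNA-binding partner (chr15:102518192-102523676, plus strand), varied little between libraries. Among cycling-like cells it had 48.8 and 45 CPM in C57BL/6 and 40.9 and 41.7 CPM in Hivep3-/- (-0.19, SE 0.157, adjusted p 0.581 by edgeR), and 26.6 and 25.1 against 29.1 and 27.9 CPM in iNKT1-like cells (0.14, SE 0.144, adjusted p 0.878 by edgeR). These groups did not overlap, but they moved in opposite directions and by amounts near the standard error.

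Among the Argonautes, Ago2, the family member that can itself cut a target RNA (chr15:73095844-73184935, minus strand), varied widely between mice of the same genotype. Over all cells it had 25.6 and 38.8 CPM in C57BL/6 and 44.2 and 28.1 CPM in Hivep3-/-, and the groups overlapped. In stage 0-like cells it had 23 and 27 UMIs in C57BL/6 against 131 and 81 in Hivep3-/-, or 16 and 39.6 against 51.1 and 32.9 CPM, so that C57BL/6 replicate 2 lay between the knockout libraries. The difference of 0.74 (SE 0.382) had an adjusted p of 0.672 by edgeR. Without C57BL/6 replicate 2 it was 1.39 and passed (adjusted p 0.0173 by edgeR), and without C57BL/6 replicate 1 it was 0.08 (adjusted p 0.969 by edgeR). The value in this class thus rested on which wild-type library was kept. Over all cells the Ago2 difference was 0.17, and -0.11 without C57BL/6 replicate 1. In cycling-like cells these values were 0.10 and -0.18, and in iNKT1-like cells 0.04 and -0.17. Chrac1 overlaps Ago2 on the other strand.

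Ago1 and Ago3 lie side by side on chromosome 4 (chr4:126435012-126468583 and chr4:126331704-126429556, both on the minus strand), 6.73 and 6.7 Mb from the start of Hivep3, the disrupted gene. Ago1 over all cells had 8.41 and 10.9 CPM in C57BL/6 and 9.49 and 8.04 CPM in Hivep3-/-. In iNKT1-like cells both knockout libraries were lower, 7.63 and 8.08 against 8.63 and 11.7 CPM, a difference of -0.37 (SE 0.227, adjusted p 0.777 by edgeR). Libraries of a genotype lay far apart in the classes with few counts, at 17.2 and 6.09 CPM for Ago1 in knockout stage 0-like cells and at 6.24 and 18.4 CPM in wild-type iNKT17-like cells, where the log2 difference was -0.72 (SE 0.604). Ago3 had 16.4 and 14.3 CPM in C57BL/6 and 16 and 17.5 CPM in Hivep3-/- over all cells (0.12, SE 0.172), and its groups overlapped in every class. In stage 0-like cells its levels were 31.4 and 23.5 CPM in C57BL/6, on either side of the 26.1 and 26.4 CPM in Hivep3-/-.

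**Figure D4:**
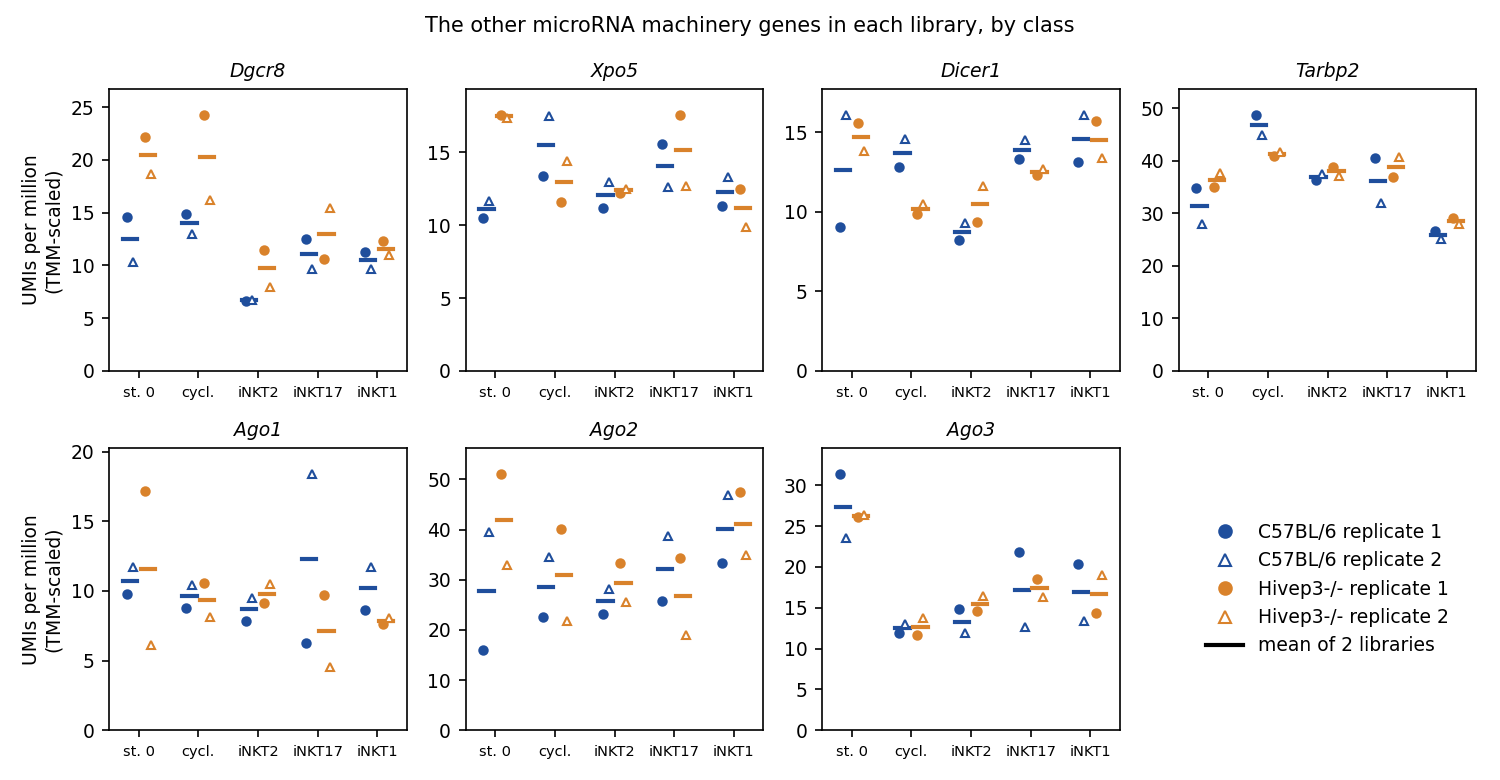
TMM-scaled CPM (linear axes from 0) of Dgcr8, Xpo5, Dicer1, Tarbp2, Ago1, Ago2 and Ago3 in each library by class (st. 0, stage 0-like; cycl., cycling-like); blue marks C57BL/6, orange Hivep3-/-, symbols the replicates and bars the mean of 2 libraries. Ago2 shows the wide spread between mice of a genotype, for example 16 and 39.6 CPM in the wild-type stage 0-like cells, and Dgcr8 the higher knockout values in the first 3 classes of its panel.

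Whether the genotype difference of these genes depended on the class was tested with the interaction term. For stage 0-like against iNKT1-like cells, 0 of 7 genes passed, where 2.87% of all genes did, and Ago2 and Xpo5 had an unadjusted p under 0.05. For Ago2 the difference of differences was 0.68 (SE 0.258, adjusted p 0.196 by edgeR), and for Xpo5 0.77 (SE 0.372, adjusted p 0.364 by edgeR). For iNKT2-like against iNKT1-like cells, 0 of 7 passed where 5.66% of all genes did, and 0 of 7 had an unadjusted p under 0.05. DESeq2 called 0 of 7 in each of these comparisons.

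The wider pathway was covered by 56 genes in 5 lists by role: 12 cofactors of the Microprocessor such as Ddx5 and Srsf3, 6 genes of export, dicing and hairpin editing, 18 of the silencing complex, 12 of microRNA modification and turnover, and 8 host transcripts. Of these, 49 could be tested over all cells and 43 to 46 in each class, and 0 passed in either direction in any of these fits with edgeR. At an unadjusted p under 0.05 there were 0 in stage 0-like and in iNKT1-like cells, 4 over all cells (Ran, Adarb1, Hsp90aa1 and Mir155hg), 4 in cycling-like cells (Zcchc11, Adarb1, Hsp90aa1 and Tnrc6b), 1 in iNKT2-like cells (Ran) and 1 in iNKT17-like cells (Snd1); DESeq2 called 1, Adarb1, over all cells. These names were given after their values were seen. The median log2 difference of the tested members over all cells was 0.0264, beside 0.0251 for all genes tested. In stage 0-like cells it was -0.0488 beside 0.0182, and in iNKT1-like cells 0.0167 beside -0.00503. Srsf3, Ddx5 and the other Microprocessor cofactors had a median of -0.0739 over all cells, with 4 of 12 above 0.

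Adarb1, an enzyme that edits adenosines in double-stranded RNA, had 101 and 38 UMIs in C57BL/6 and 12 and 18 in Hivep3-/- over all cells. The groups did not overlap, and the log2 difference of -2.11 (SE 0.443) had an adjusted p of 0.107 by edgeR. In cycling-like cells it had 54 and 24 UMIs in C57BL/6 against 3 and 5 in Hivep3-/- (-1.94, SE 0.453, adjusted p 0.0554 by edgeR), also without overlap. In iNKT1-like cells the counts were 5 and 6 against 6 and 5 UMIs, too few to pass the filter. Adarb1 did not pass it in iNKT2-like cells either, with 33 and 2 UMIs in C57BL/6 and 0 and 3 in Hivep3-/-. Most of these counts came from C57BL/6 replicate 1, and the genotypes overlapped (2.61 and 0.417 against 0 and 0.68 CPM).

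The host transcripts whose microRNAs are printed above were sparse. Mir142hg had 43 and 177 UMIs in C57BL/6 and 230 and 94 in Hivep3-/- over all cells, so mice of the same genotype differed more than the genotypes did (0.24, SE 0.816, adjusted p 0.937 by edgeR). C57BL/6 replicate 1 had the lowest CPM in each class except iNKT17-like cells. Mir17hg, which holds the pairs sharing the seeds AAAGUGC and GUGCAAA, had 33 and 42 UMIs in C57BL/6 and 40 and 61 in Hivep3-/- (0.34, SE 0.506, adjusted p 0.842 by edgeR), and the groups overlapped when scaled to library size. Messenger-type libraries count the host transcript, not the hairpin or the mature microRNA, so no level of a mature microRNA was measured.

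The genes next to Drosha on the chromosome had small differences. Of the 13 other counted genes that start within 1000000 bases of the start of Drosha, 5 passed the filter over all cells, with log2 differences between -0.32 and 0.33. The highest was that of 6030458C11Rik, which starts 0.2 kb from Drosha on the opposite strand and had 13.4 and 15.2 CPM in C57BL/6 and 19.5 and 16.4 CPM in Hivep3-/-. The groups did not overlap, and its adjusted p was 0.531 by edgeR. It was named after its values were seen.

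Across classes and libraries, other genes had a pattern close to that of Drosha. Over the 20 sums of 5 classes in 4 libraries, on log2(CPM + 1), the highest Pearson correlations among the 5315 genes averaging 20 CPM or more were those of Cd4 (r = 0.906), the co-receptor, Plac8 (0.851), the cytokine gene Il13 (0.844), Mrpl30 (0.844), a mitochondrial ribosomal protein gene, and Rbfa (0.84). Over the 10 sums of the C57BL/6 libraries alone they were Ass1 (0.97), an enzyme of arginine synthesis, Mrpl30 (0.957), Cd4 (0.948), Mindy3 (0.947) and Rbfa (0.939). These points share libraries and cell classes and are a description. The 20 sums also hold both genotypes, so their correlations take in the genotype difference for which Drosha was chosen. Cd4, Plac8, Il13, Mrpl30 and Rbfa each averaged lower in Hivep3-/-, for example Cd4 with 14.5 against 35.5 CPM. The other 7 genes of the machinery had correlations with Drosha between -0.442 (Dicer1) and 0.199 (Tarbp2) over all libraries, and between -0.408 (Ago1) and 0.474 (Tarbp2) within C57BL/6. Of these, Dgcr8, Dicer1, Xpo5, Ago1 and Ago3 averaged under 20 CPM in both genotypes, below the level set for the genes ranked above. Counting error weakens correlations at such levels, so these values do not show that a shared pattern is absent.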

How the data were processed

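The deposited values were raw counts of UMIs per gene and barcode, made by the authors with Cell Ranger 3.1.0 on mm10, with no normalization; the notes of the submitters also name Seurat 3.1.4. Following the methods of the study, barcodes were kept when they had from 500 to under 4100 genes, a total of 1000 UMIs or more, and under 6% of UMIs from mitochondrial genes. In R 4.3.3 with Seurat 5.3.0, 2000 variable genes and 30 principal components (irlba 2.3.5.1) were corrected between libraries by mutual nearest neighbours (20 neighbours, RANN 2.6.2) and cut into Louvain clusters at resolution 0.8. Hivep3, 26 genes named by the study, the pathway lists, sex genes and T cell receptor segments (351 genes in all) could not be variable genes. A cluster was named where at least 3 markers of a class stood among its 20 genes of highest fold, and the names were rebuilt here. Scrublet (scanpy 1.11.5, Python 3.11.15) called 0, 4, 1 and 5 doublets, so it had not worked; no doublet was removed, and removing the 5% of highest scores was an alternative.

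Cells are not replicates. Counts were summed per library and class (726273 to 45022744 UMIs), with the smallest sums, and so the largest counting error, in stage 0-like (from 726273) and iNKT17-like cells (from 1084683), and tested with edgeR 4.0.16 (two-sided quasi-likelihood, filterByExpr, TMM), or DESeq2 1.42.0 as an alternative. The groups and replicate numbers came from the sample labels. Replicates of a genotype differed by more than sampling noise, and p-values measure the spread between 2 mice a genotype. The script was tested on simulated counts. Positions came from GENCODE vM21 (GRCm38, the assembly of mm10), in which 30934 of 31053 gene identifiers (99.6%) were found. The plan was to name the 8 genes, called members of the lists, host transcripts of at least 1 CPM, called neighbours and the 5 genes most like Drosha. No list member or neighbour was called. The other list members and the neighbour that are named were picked after their values were seen, apart from Ddx5 and Srsf3, given as examples. The members and lists were chosen with earlier results of these data known. Alternatives were the count filter, scaling, test, replicate block, cell filter, doublets, resolution, library correction and leaving out each library.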

Additional observations from a re-analysis of the deposited data

How the results depend on the processing

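Of the 100 counts of called genes among the other 7 under the alternatives, 99 were 0, as reported. The exception was stage 0-like cells, where leaving out 1 library each gave 0 to 1 called genes, the 1 being Ago2 without C57BL/6 replicate 2. An arm left with 1 library was assumed to vary like the other arm. Drosha stayed below 0 in all 76 within-class and all-cell values under alternatives. Leaving out 1 library each, its difference ran from -3.20 to -2.88 over all cells. It ran from -3.23 to -2.77 in iNKT1-like and from -2.04 to -1.78 in iNKT2-like cells. Of 700 single values of the other 7 genes, 50 changed sign and 1 had an adjusted p under 0.05 (edgeR); the cause was not tested. Without the TMM factor the log2 difference of Xpo5 over all cells was 0.03, that of Ago1 in cycling-like cells 0.11, and that of Ago3 0.02 in stage 0-like cells, 0.04 in iNKT1-like cells and 0.06 in iNKT17-like cells. For Ago3 in stage 0-like against iNKT1-like cells it was 0.04 without TMM, 0.07 at resolution 0.4, 0.03 at 1.2 (Tarbp2 -0.07) and 0.10 without library correction, which gave Xpo5 -0.01 in iNKT2-like cells. Xpo5 in stage 0-like cells went from 0.68 to 0.13 at resolution 1.2.

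Leaving out 1 library each, differences that changed sign ran as follows. Over all cells Dicer1 ran from -0.10 to 0.22, Xpo5 from -0.14 to 0.01, Ago1 from -0.31 to 0.06 and Ago2 from -0.20 to 0.49. In stage 0-like cells Dicer1 ran from -0.14 to 0.69, Ago1 from -0.78 to 0.69 and Ago3 from -0.26 to 0.16. In cycling-like cells Ago1 ran from -0.23 to 0.13, Ago2 from -0.37 to 0.49 and Ago3 from -0.11 to 0.15. Xpo5 in iNKT2-like cells ran from -0.07 to 0.14. In iNKT17-like cells Dgcr8 ran from -0.09 to 0.45, Xpo5 from -0.17 to 0.30, Ago1 from -1.38 to 0.19, Ago2 from -0.75 to 0.10, Ago3 from -0.32 to 0.46 and Tarbp2 from -0.06 to 0.28. In iNKT1-like cells Xpo5 ran from -0.31 to 0.03, Ago2 from -0.20 to 0.31 and Ago3 from -0.30 to 0.32. For stage 0-like against iNKT1-like cells Ago1 ran from -0.51 to 1.06, Ago3 from -0.20 to 0.19 and Tarbp2 from -0.06 to 0.19, and for iNKT2-like against iNKT1-like cells Dicer1 ran from -0.06 to 0.49 and Xpo5 from -0.05 to 0.34.

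The labels do not say whether libraries with the same replicate number were handled together. Deviations of same-numbered libraries from the mean of their genotype correlated at 0.0806 to 0.248. With 2 libraries a genotype, both pairs give the same value, so it cannot show whether they shared a batch. With the replicate number as a block, 0 of 7 genes were called in every class, Ago3 in iNKT17-like cells was 0.02, and all genes called numbered 1091 in cycling-like, 212 over all, 198 in iNKT2-like, 104 in stage 0-like and 15 in iNKT17-like cells.

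Counts over all genes, the background for the 7, moved more. For all cells and then for the classes stage 0, cycling, iNKT2, iNKT17 and iNKT1, they were 94, 29, 433, 51, 5 and 67 as reported and 965, 100, 1152, 424, 91 and 437 with no filter on low counts. DESeq2 called 413 over all cells, 93 in iNKT2-like and 138 in iNKT1-like cells, and 91 and 115 where the interactions had 308 and 619. The other cell filter gave 221 over all cells, 11 in stage 0-like, 766 in cycling-like and 25 in iNKT2-like cells. No TMM gave 19 in stage 0-like and 30 in iNKT2-like cells, resolution 1.2 gave 65 in stage 0-like cells, no library correction gave 242 in cycling-like, 29 in iNKT2-like and 116 in iNKT1-like cells, and the largest iNKT1-like cluster alone gave 43. Leaving out 1 library each gave 14 to 112, 89 to 308, 321 to 508, 20 to 234, 0 to 75 and 26 to 186, and for the interactions 117 to 357 and 124 to 789. Depth limits the stage 0-like and iNKT17-like values most, where a library held as few as 7 UMIs of a member (Dgcr8, stage 0-like) and 5 (Ago1, iNKT17-like).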

Other observations

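Mir155hg, the host transcript of miR-155, fell below the level at which host transcripts were described and is named here after its values were seen. Over all cells it had 3 and 2 UMIs in C57BL/6 and 11 and 13 in Hivep3-/-. Per UMI of the libraries this is a ratio of 5.18 (exact 95% interval 1.94 to 17.4, counting error only), and the fitted log2 difference of 2.22 (SE 0.622) had an adjusted p of 0.209 by edgeR. Both knockout libraries were higher, in counts too small to compare by class.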
